A study of Mus musculus with 8 samples.

Results

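The regions described here carried histone H3 lysine 27 acetylation (H3K27ac) in every library of the series, in cultures from cortex and from the medial ganglionic eminence (MGE), with and without depolarisation, and lay away from the ends of protein-coding genes. Peaks of all 8 lists that overlapped by at least 1 bp were merged on chromosomes 1 to 19 and X. A merged region with a peak in all 8 lists was called constant, and a constant region more than 2 kb from both ends of every protein-coding gene span of mm10 was a member. The merge gave 113604 regions, of which 12960 were constant and 4887 were members, 4.3% of all regions and 37.7% of the constant ones. The other 8073 constant regions lay at gene ends and are the set against which members are compared. Members were chosen by the peaks of the 8 lists and by distance, so their presence in every library is a description and not a finding.

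The data were lists of H3K27ac peaks from chromatin immunoprecipitation sequencing of primary neurons of C57/BL6 mice, with 2 libraries in each of 4 groups. The groups, from the titles, were CTX with KCl, CTX unstimulated, MGE with KCl and MGE unstimulated. From day 6 in vitro activity was blocked overnight in all cultures, the unstimulated ones included, by 1 µM TTX, which blocks sodium channels, and 100 µM D-AP5, which blocks NMDA receptors. On day 7 the KCl cultures received 55 mM KCl for 2 h, which depolarises neurons, and the others received nothing more. Antibody ab4729 was used, with 50 bp reads. The labels are at odds on the material, since CTX titles name embryonic day 14, while the source field of each of the 8 names embryonic day 16 and MGE libraries too are labelled as cortical neurons. The 2 libraries of a group are labelled as biological replicates, and what was kept apart between them is not stated, so a p-value measures only the spread between libraries, part of which may be technical.

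H3K27ac is laid down by the acetyltransferases CBP and p300 and marks active promoters and active enhancers. Enhancers often lie in introns or between genes, far from the promoter they act on, and many are used in 1 cell type only. A gene with several promoters can also hold an internal start site far from both ends of its span. Depolarisation lets calcium into neurons and induces immediate early genes such as Fos, whose enhancers gain acetylation.

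Most members held no listed transcription start. RefSeq start sites (build GRCm38.p6, the coordinates of mm10) of protein-coding genes lay in 549 members (11.2%), only noncoding starts lay in 260 (5.32%), and 4078 (83.4%) held none. At gene ends 67.5% of the constant regions held a listed start. In position, 2691 members (55.1%) lay inside a protein-coding gene span and 2196 (44.9%) outside, with 653 (13.4%) more than 100 kb from any such span. Of all 96923 merged regions away from gene ends, 49.3% lay inside a span. Exons and introns were not told apart here.

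MicroRNA hairpins that lay in members are shown first, because their loci include members of very low fold (Mir9-1 and Mir9-2) and 1 that differed between cultures. MicroRNAs are short RNAs that pair with messenger RNAs through their seed, bases 2 to 8, printed in capitals below from RefSeq. Of 1005 hairpins in the table, 21 lay in members and 55 in constant regions at gene ends. The strands of miR-9, an abundant brain microRNA, came from 2 members, and miR-128, a neuronal microRNA of the Arpp21 gene, from 1. The 5p strands of 5 hairpins of the miR-344 cluster, in 5 members on chromosome 7, shared the seed GUCAGGC, and that of a neighbouring hairpin, Mir344f, differed.
mmu-miR-9-5p: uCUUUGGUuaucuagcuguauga
mmu-miR-9-3p: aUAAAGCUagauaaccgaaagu
mmu-miR-128-3p: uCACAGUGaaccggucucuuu
mmu-let-7i-5p: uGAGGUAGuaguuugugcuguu
mmu-miR-760-3p: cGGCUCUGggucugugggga
mmu-miR-344d-3-5p: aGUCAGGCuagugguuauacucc
mmu-miR-344c-5p: aGUCAGGCugcuggcuagaguac
mmu-miR-344-5p: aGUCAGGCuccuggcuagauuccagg
mmu-miR-344g-5p: aGUCAGGCuccuggcaggagu
mmu-miR-344f-5p: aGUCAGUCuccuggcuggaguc
Both Mir344 and Mir344-2 gave the sequence printed for miR-344-5p.

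Promoter stretches are shown next for members that stood out in called length or fold and held a listed start. Each is the 200 bases before that start, 5′ to 3′ on the gene's strand, from RefSeq (GRCm38.p6). Those of Zfp638, Magi2 and Gm34799 lie partly outside the member. Capitals mark matches to the GC box GGGCGG, the CCAAT box CCAAT and the E-boxes CAGATG and CAGCTG, searched on both strands (so CCGCCC for the first, ATTGG for the second and CATCTG for the third are also capitals). These letters describe the stretch and are not evidence of a bound factor.
Zfp638 (chr6:83914153-83914352, plus strand): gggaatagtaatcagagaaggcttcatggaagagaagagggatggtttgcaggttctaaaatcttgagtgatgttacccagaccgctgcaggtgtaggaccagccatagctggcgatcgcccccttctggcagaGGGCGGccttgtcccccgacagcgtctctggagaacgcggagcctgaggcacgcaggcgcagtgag
Magi2 (chr5:19907318-19907517, plus strand): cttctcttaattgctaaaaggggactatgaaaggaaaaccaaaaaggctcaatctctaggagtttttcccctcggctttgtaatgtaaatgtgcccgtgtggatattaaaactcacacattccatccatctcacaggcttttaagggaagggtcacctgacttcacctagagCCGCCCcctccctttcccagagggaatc
Elavl4 (chr4:110286835-110287034, minus strand): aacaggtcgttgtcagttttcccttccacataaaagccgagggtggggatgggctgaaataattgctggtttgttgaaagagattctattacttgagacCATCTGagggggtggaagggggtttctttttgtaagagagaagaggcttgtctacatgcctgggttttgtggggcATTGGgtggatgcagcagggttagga
4933427I22Rik (chr4:139933075-139933274, minus strand): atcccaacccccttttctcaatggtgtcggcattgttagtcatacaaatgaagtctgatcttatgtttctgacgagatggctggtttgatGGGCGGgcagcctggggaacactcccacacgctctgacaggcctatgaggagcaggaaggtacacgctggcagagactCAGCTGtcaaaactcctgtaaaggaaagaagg
Gm34799 (chr17:9929822-9930021, minus strand): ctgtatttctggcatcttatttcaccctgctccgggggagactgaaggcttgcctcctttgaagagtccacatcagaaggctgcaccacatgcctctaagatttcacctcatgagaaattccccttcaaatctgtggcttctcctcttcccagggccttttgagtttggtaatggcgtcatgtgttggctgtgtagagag
Rbms3 (chr9:117252484-117252683, minus strand): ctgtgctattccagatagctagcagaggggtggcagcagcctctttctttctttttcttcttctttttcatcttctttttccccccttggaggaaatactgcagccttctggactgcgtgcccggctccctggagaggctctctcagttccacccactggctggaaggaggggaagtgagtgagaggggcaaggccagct
Aff1 (chr5:103753962-103754161, plus strand): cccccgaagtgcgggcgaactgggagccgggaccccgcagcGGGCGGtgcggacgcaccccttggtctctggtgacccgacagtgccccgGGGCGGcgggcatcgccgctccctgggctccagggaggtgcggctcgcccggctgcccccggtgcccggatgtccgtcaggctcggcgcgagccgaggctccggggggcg
The Aff1 stretch held 27 CG dinucleotides and 2 GC boxes, against 10 and 1 for Zfp638 and 2 CG dinucleotides for Elavl4, Gm34799 and Rbms3.

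The starts in members were intermediate in CG content. Over the 300 bases around each listed start (250 before and 50 after), the median number of CG dinucleotides was 16 for the 1033 starts in members, 24 for the 7423 starts in constant regions at gene ends and 7 for all 32619 listed starts. Protein-coding starts in members had a median of 19 and noncoding ones 9. The GC box was found on either strand of 50.6% of starts in members, 68% at gene ends and 35.9% of all. The AP-1 site TGACTCA, bound by Fos and Jun proteins, was found at 4.94% of starts in members, 2.42% at gene ends and 5.22% of all starts. The CRE TGACGTCA, bound by CREB, was found at 2.42%, 3.85% and 1.8%. The E-boxes CAGATG and CAGCTG, bound by neuronal bHLH factors, were found at 14.4% and 18.8% of starts in members at 9.4% and 13.8% at gene ends and at 17.1% and 16.4% of all listed starts. No start site was counted for the members that held none, so these shares describe 809 members (16.6%).

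Constant regions were a small share of what was called away from gene ends. Members were 5.04% of the merged regions away from gene ends, whereas 48.4% of the 16681 merged regions at gene ends were constant. Away from gene ends, 40053 regions were called in 1 list, 2521 in 7 and 4887 in 8. The median fold of the called peaks was 3.11 for regions of 1 list, 3.28 for 7 lists and 3.46 for members, and the median called length was 320, 634 and 946 bp. These values follow the rule that chose the members and carry no test. Of the 2521 regions missing from 1 list, 826 (32.8%) were missing from MGE KCl 1 and 609 (24.2%) from CTX unstimulated 1, and the fewest, 36, from CTX unstimulated 2. The lists held between 36035 peaks (MGE KCl 1) and 66827 peaks (CTX KCl 2) and read depth is unknown, so a region outside a list may still be acetylated there.

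Values changed little across the 2 kb limit. The 101 members between 2 and 2.5 kb from a gene end had a median fold of 3.73 and a median called length of 934 bp, and 30.7% held a protein-coding start. The 154 constant regions just outside the rule, from 1.5 to 2 kb, had 3.84, 1012 bp and 27.3%. The 4786 members farther out had 3.49, 949 bp and 10.8%.

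The 8 libraries shared less of a member than of a region at gene ends, although merged widths were similar. Merged width ran from 385 to 4049 bp with a median of 1508 bp, against 1420 bp at gene ends. The common core, the bases called in all 8 lists, had a median of 388 bp or 30.4% of the width in members that had one, against 534 bp or 40.8% at gene ends. A common core was missing from 481 members (9.84%) and from 188 gene-end regions (2.33%). A core of at least 500 bases was found in 1629 members (33.3%) and 4271 gene-end regions (52.9%).

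Called length is the number of bases of a region that lay in peaks of a library. The median called length of members in CTX was 910 and 1157 bp with KCl (libraries 1 and 2) and 831 and 1134 bp unstimulated. In MGE it was 763 and 1032 bp with KCl and 874 and 855 bp unstimulated. The second CTX library of each treatment and the second MGE KCl library were the longest, and they were also the 3 libraries with most peaks. At gene ends the medians in the same order were 1102, 1233, 846 and 1119 bp in CTX and 894, 1106, 859 and 826 bp in MGE.

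Set against gene ends in the same library, members had relatively shorter calls in the KCl libraries. The ratio of the members' median to the gene-end median was 0.826 and 0.938 in CTX with KCl and 0.982 and 1.01 in CTX unstimulated. It was 0.854 and 0.933 in MGE with KCl and 1.02 and 1.04 in MGE unstimulated. All 4 KCl ratios lay below all 4 unstimulated ratios. The difference was −0.19 on the log2 scale, a ratio of ratios of 0.876, with a two-sided exact permutation p of 0.0556 within cultures, the smallest that 8 libraries can give, and 0.222 after Benjamini-Hochberg adjustment over 4 tests. The design therefore cannot place it past a threshold of 0.05. CTX and MGE did not separate in this ratio (difference −0.03, exact permutation p = 0.714, adjusted 0.952), and the sign of that difference turned when CTX KCl 1 or MGE unstimulated 2 was left out (0.031 and 0.008).

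**Figure D1:**
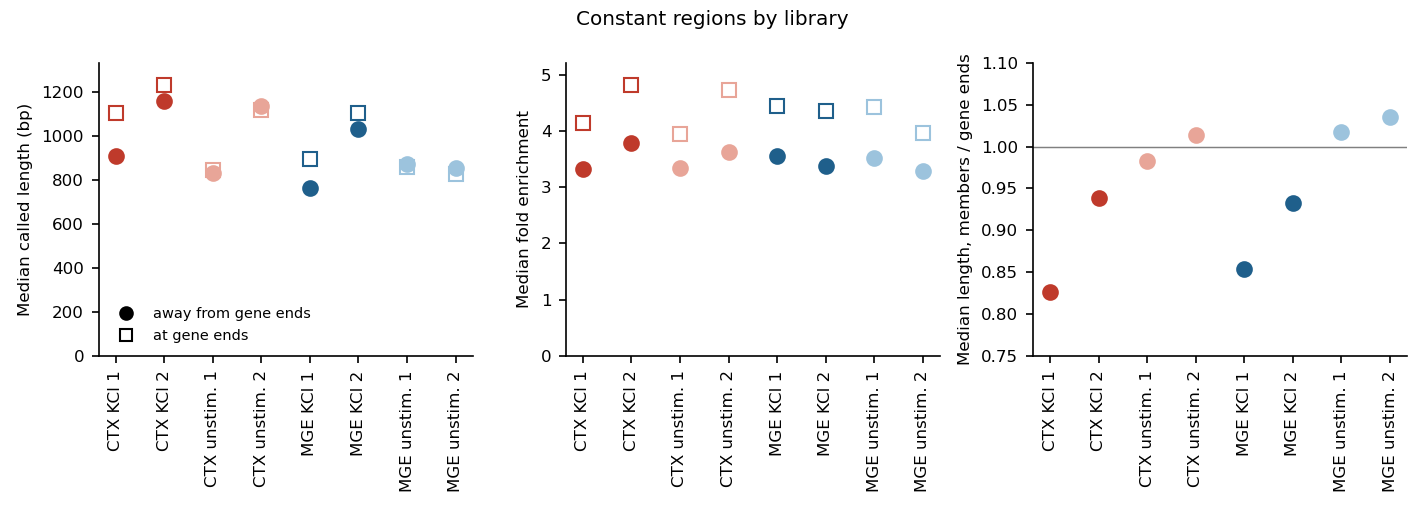
Median called length in bp (left), median fold enrichment (middle) and the ratio of the 2 length medians (right) in each of the 8 libraries, with filled circles for members, open squares for constant regions at gene ends and 1 point per library. Fold of members lies below gene ends in all 8 libraries, and the 4 KCl length ratios (0.826 to 0.938) lie below the 4 unstimulated ones (0.982 to 1.04).

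Fold enrichment, the authors' value for each peak, was low in members. The median fold of members in CTX was 3.32 and 3.79 with KCl and 3.34 and 3.63 unstimulated, and in MGE it was 3.56 and 3.37 with KCl and 3.52 and 3.28 unstimulated. At gene ends the medians ran from 3.94 to 4.83. The ratio of the medians was between 0.768 and 0.847 in the 8 libraries, so members were lower in each. Other peaks away from gene ends, which belong to no constant region, had median folds of 3.07 to 3.35. Ranked among the 12960 constant regions of the same library, the median member stood between percentiles 27.9 and 31.1. The fold ratio did not separate KCl from unstimulated (difference −0.03 log2, two-sided exact permutation p = 0.444, adjusted 0.889) or CTX from MGE (0.002, p = 0.971).

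Fold varied with start class and little with position inside or outside genes. Members with a protein-coding start had a median fold of 4.10 (percentile 52.8), those with only a noncoding start 3.69 (percentile 38.2) and those without a listed start 3.44 (percentile 28.7). Members inside gene spans and outside them had 3.49 and 3.50. Fold and length were nearly unrelated across members (Pearson r −0.128, Spearman rank correlation −0.107 over 4887 members, which share libraries), and at gene ends r was −0.252. In 5 classes of equal size by called length, the longest members had the lowest median fold, 3.29 at a median of 1515 bp, against 3.49 at 517 bp in the shortest.

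The 10 members with the highest fold percentile had called lengths of 411 to 1057 bp over the 8 libraries, and 8 of them were shorter than the median member (949 bp), all but Zfp638 and Anp32e. A region 29.1 kb from Rpusd4, a mitochondrial pseudouridine synthase (chr9:35305043-35305688), had folds of 10.1, 10.8, 10.2 and 10.2 in CTX and 10.8, 9.86, 10.3 and 10.2 in MGE. All 8 values lay close together, as did the called lengths of 590 to 641 bp. A region 32.5 kb from Pum2, an RNA-binding repressor of translation, had folds of 8.13 to 12.5. A region more than 100 kb from any gene (chr9:3025301-3025769) had 7.59 to 8.84 over 421 to 466 bp. The internal start of Zfp638, a zinc finger protein whose stretch is printed above, lay in a member of 885 to 1014 bp with folds of 6.23 to 8.31. Others lay at or nearest to Tmem29, Kif2c, Zfp583 and Anp32e. The sources used here do not give the treatment of reads that match several places. No list of sites known for artefact signal was applied here, and how much of these high folds is acetylation was not tested.

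The members with the longest stretch called in all 8 libraries had a mean fold below the 3.50 of the median member in 9 of 10 cases, the exception being Rabgap1l at 3.66. Inside Stox2, 2271 bp were called in every library (chr8:47286367-47289600). Its called length was 2849 and 3161 bp in CTX with KCl, 2502 and 2595 bp unstimulated, 2688 and 2846 bp in MGE with KCl and 2404 and 2658 bp unstimulated. The libraries overlapped between cultures, and the fold was only 2.23 to 2.77. The internal start of Elavl4, the neuronal RNA-binding protein HuD, had a core of 1721 bp and called lengths of 1779 to 2159 bp. The internal start of Magi2, a synaptic scaffold protein, had a core of 1773 bp, and a noncoding start, Gm35835, 168 kb from the nearest protein-coding gene, 1837 bp. Cores of 1732 to 1816 bp lay in St8sia3, Trio, Camta1 (a calmodulin-binding transcription activator) and Rabgap1l and 32.3 kb from Neurl1b. None of these 10 members passed the test of CTX against MGE (limma on called length, described next), with adjusted p from 0.0829 (Neurl1b) to 0.592 (Elavl4). They were chosen for a long stretch called in every library, which leaves little room for a difference in called length. That none passed therefore follows largely from the choice and is not a finding.

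**Figure D2:**
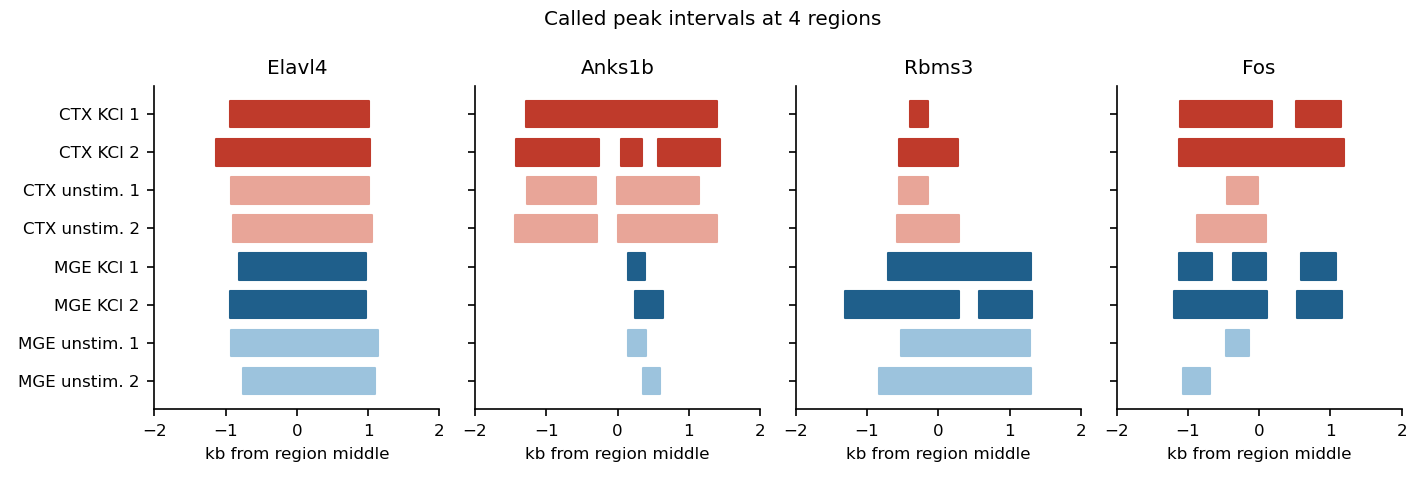
Peak intervals called in the 8 libraries (rows) at 4 members, in kb from the middle of the merged region, with 1 bar per peak coloured by group. The Elavl4 member is called over the same stretch in all libraries, the Anks1b member is long only in CTX, the Rbms3 member is longer in MGE, and the Fos member is longer in the KCl libraries of both cultures.

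The cultures differed in the length of constant regions more often away from gene ends than at them. Log2 called length, centred on the median of all constant regions of a library, was fitted with limma across all 12960 constant regions, and a region was called at a Benjamini-Hochberg adjusted p under 0.05. Over all constant regions 6.44% were called for CTX against MGE. Among members 590 (12.1%) were called and at gene ends 245 (3.03%). Of the called members 258 were longer in CTX and 332 in MGE, where the shares over all constant regions were 3.19% and 3.25%. The spread was larger too, with a median within-group SD of 0.288 log2 in members and 0.231 at gene ends. The difference in these shares was not tested. The count was 245 without MGE KCl 1, 250 without CTX unstimulated 1, 273 without CTX KCl 1 and 375 without CTX KCl 2, and 441 to 666 without each of the others. Of the 590 members, 231 to 477 were still called in these fits and none changed sign.

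The balance of directions depended on centring and on single libraries. Without centring 62 members were longer in CTX and 15 in MGE. With it, more were longer in CTX without MGE KCl 1 (131 and 114), MGE KCl 2 (369 and 297), MGE unstimulated 1 (225 and 223) or MGE unstimulated 2 (254 and 239). More were longer in MGE without any single CTX library, most unequally without CTX KCl 2 (107 and 268). The median difference over members moved from −0.07 to 0.14 log2 and that over gene ends from −0.03 to 0.18. With quantile normalisation 289 and 331 members were called, and centred on members alone 344 and 380.

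Call shares by class were not tested against each other. Called were 5.28% of members with a protein-coding start, 10.8% of those with only a noncoding start and 13.1% of those with none. Of members more than 100 kb from any gene 14.2% were called, 55 longer in CTX and 38 in MGE, and of the 481 members without a common core 21.6%. The core is defined by the same called intervals as the length, so the last share is not independent of the measure tested. In called length centred by library, all 4 CTX libraries lay beyond all 4 MGE libraries in 844 members (17.3%), against 11.5% of all constant regions, with 350 higher in CTX and 494 lower (5.02% and 6.5% of all constant regions).

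**Figure D3:**
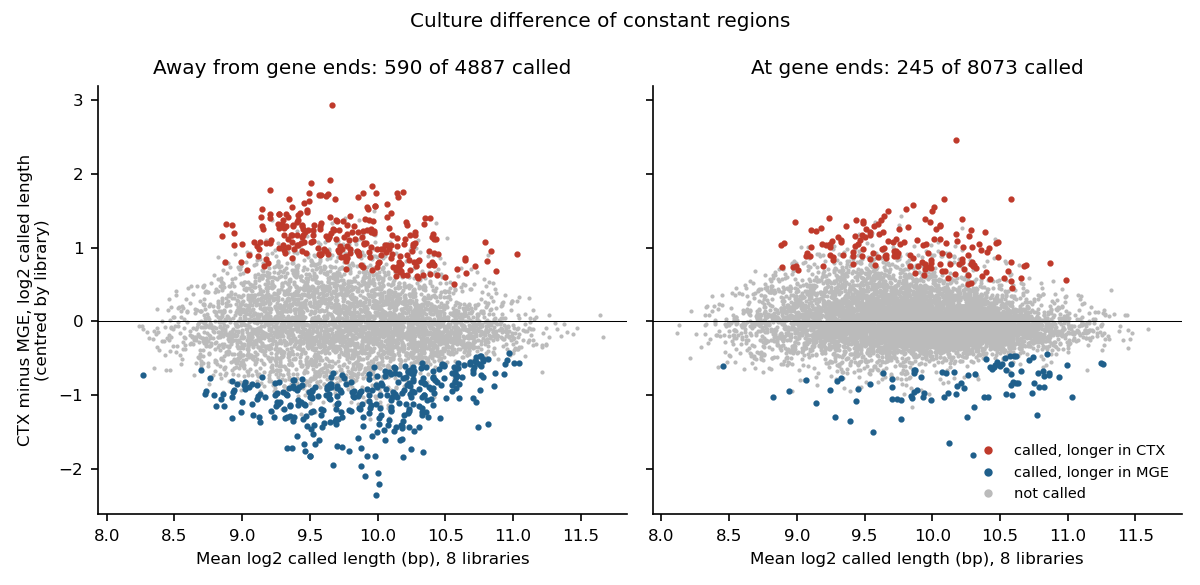
Difference in called length between CTX and MGE (log2, centred by library) against mean log2 called length in bp, for members (left) and constant regions at gene ends (right), with 1 point per region and called regions in red (longer in CTX) and blue (longer in MGE). Called points make up 590 of 4887 members and 245 of 8073 gene-end regions.

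Length and fold did not move together. The fold of a region is a mean over its peaks weighted by their length, so both come from the same called peaks and are not independent measures. The 258 members longer in CTX had a median of 1449 bp in CTX and 599.5 bp in MGE, and their fold percentile was higher in CTX in 90 (34.9%). The 332 members longer in MGE had 766 bp in CTX and 1394 bp in MGE, and their fold percentile was higher in MGE in 107 (32.2%). A fit of log2 fold in place of length called 240 members (4.91%), against 3.47% of all constant regions, with 136 higher in CTX and 104 in MGE (1.54% and 1.93% of all constant regions). Both fits called 56 members, 13 in the same direction and 43 in opposite directions. By log2 fold, the difference had the direction of the length difference in 209 of the 590 called members (35.4%) and in 2241 of all 4887 (45.9%). For fold percentile, 681 members (13.9%) did not overlap between cultures, against 10.6% of all constant regions. In 391 all CTX libraries were higher and in 290 lower, where the shares of all constant regions were 5.22% and 5.39%.

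The largest difference in favour of CTX lay inside the span of Anks1b, which encodes a postsynaptic scaffold protein (chr10:90493352-90496226). Its called length was 2671, 2321, 2120 and 2532 bp in the CTX libraries and 240, 406, 241 and 237 bp in the MGE libraries, with means of 2411 ± 242 and 281 ± 83.4 bp (SD, n = 4). The groups were far apart, and KCl and unstimulated libraries were alike within each. The log2 difference was 2.93 (SE 0.20, limma adjusted p = 0.000281). Fold was alike, at 2.79 to 3.10 in CTX and 2.74 to 3.71 in MGE. In the members of Akt2, Cd180 and Mir128-2 too, the shortest library measured 237 to 240 bp. Membership requires a peak in every library, so no length can fall to 0. The size of a log2 difference whose shorter side is near these lengths therefore depends on the shortest peak that was called. The shortest peak length of the lists was not examined.

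In Fam13c called length was 1818, 1924, 1350 and 1662 bp in CTX and 356, 907, 260 and 260 bp in MGE (log2 difference 1.91, SE 0.24, limma adjusted p = 0.00329). A member 27.9 kb from Klhdc7a held the start of the long noncoding RNA 4933427I22Rik, printed above. It measured 1380 to 1671 bp in CTX and 309 to 456 bp in MGE, while its fold was 2.56 to 3.02 in CTX and 2.85 to 4.02 in MGE. In Dscaml1, a neuronal cell adhesion gene, a member measured 1639 to 2617 bp and 290 to 714 bp. The member in Foxn3, a forkhead factor, measured 699 to 1585 bp and 253 to 363 bp, and that in Akt2, a kinase of insulin signalling, 1830 to 2212 bp and 240 to 1066 bp. Members in Mtss1, which binds actin and membranes, and in Cd180, a receptor of B cells, and 2 members more than 100 kb from any gene completed the 10 largest differences (log2 1.74 to 1.75). Among the 10, those in Anks1b, Foxn3 and Mtss1 and the gene-distant one on chromosome 18 had no common core. Of these 10, 7 kept the call in all 13 alternative fits over the same regions, and the gene-distant member on chromosome 18 lost it only without centring. Mtss1 lost it in 4, without centring and without CTX KCl 1 or either CTX unstimulated library. The gene-distant member on chromosome 16 lost it in 6, without centring, without any single CTX library and without MGE unstimulated 1. Adjusted p reached 0.0961 for Mtss1 and 0.089 for the latter.

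The largest difference in favour of MGE lay 257 kb from the nearest protein-coding gene and held the start of the long noncoding RNA Gm34799 (chr17:9926345-9929872). Its called length was 302, 457, 300 and 1332 bp in CTX and 1952, 1848, 2637 and 2176 bp in MGE. CTX unstimulated 2 was the longest of the CTX libraries and still below all MGE libraries. The member had no common core. The log2 difference was −2.35 (SE 0.32, limma adjusted p = 0.00527), and fold was lower in MGE, at 2.14 to 2.27 against 2.63 to 2.85.

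The internal start of Rbms3, an RNA-binding protein gene, was the next (chr9:117250625-117253255). Its called length was 248, 830, 404 and 864 bp in CTX and 2008, 2344, 1809 and 2127 bp in MGE (log2 difference −2.20, SE 0.30, limma adjusted p = 0.00527). In CTX the second libraries were again the longer ones. In Cux2, a homeobox gene of upper-layer cortical neurons, a member measured 479, 1106, 331 and 1109 bp in CTX and 1872, 1930, 2342 and 2090 bp in MGE, with a fold of 3.77 to 4.46 in CTX and 2.44 to 2.99 in MGE. The longer call was thus in MGE and the higher fold in CTX, without overlap in either, though both values come from the same called peaks. A member 26.0 kb beyond Ptprn2, a phosphatase-like protein of dense-core vesicles, measured 269 to 947 bp and 1752 to 1954 bp. The others lay in Tbc1d1, Frmpd2, Pde4d (a cyclic AMP phosphodiesterase), Sufu (an inhibitor of Hedgehog signalling) and Myt1l (a neuronal zinc finger factor) and in a gene-distant stretch of chromosome 3, with log2 differences from −2.06 to −1.82. The members in Frmpd2 and Sufu had no common core. Sufu kept the call in all 13 alternative fits and the other 8 lost it only without centring, while Tbc1d1 lost it also without CTX unstimulated 1, MGE KCl 1 or MGE unstimulated 1 (adjusted p up to 0.135).

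**Figure D4:**
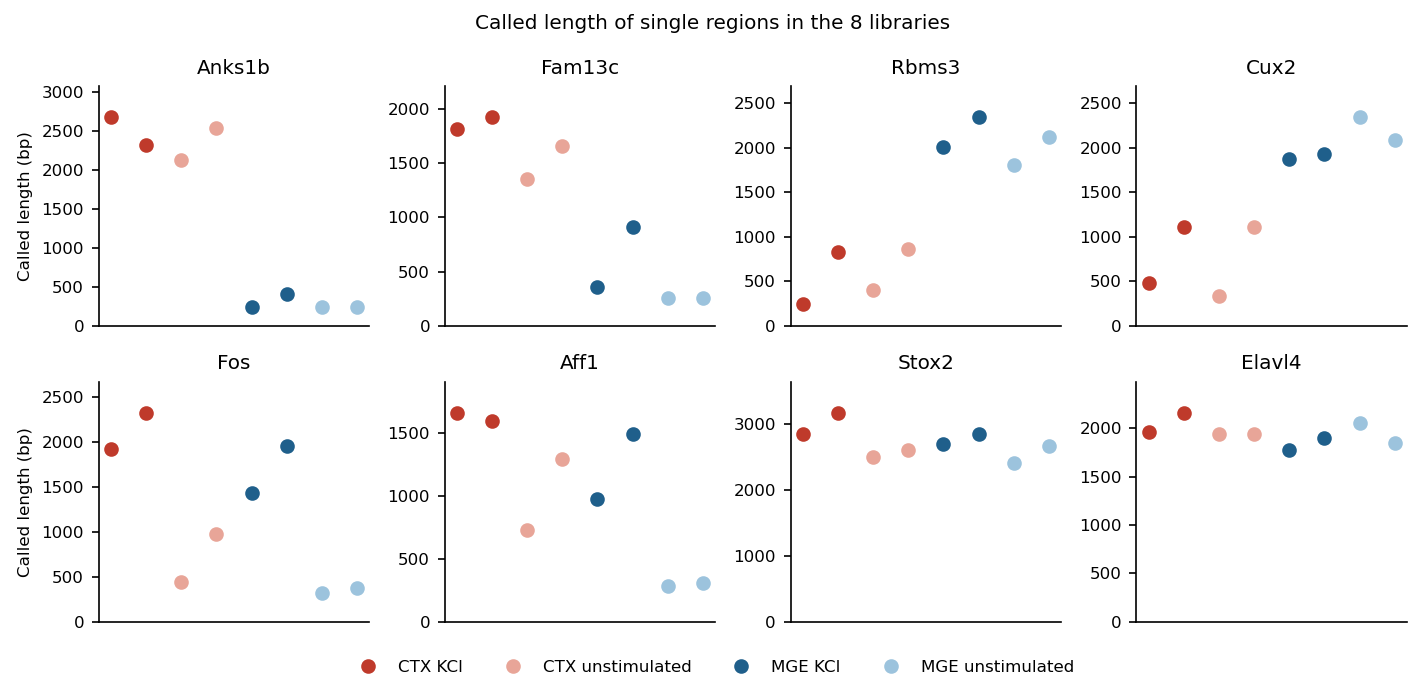
Called length in bp of 8 members in the 8 libraries, with 1 point per library coloured by group. Anks1b and Fam13c are longer in CTX and Rbms3 and Cux2 in MGE, and Fos and Aff1 are longer in KCl than in unstimulated MGE libraries. Stox2 and Elavl4, chosen for a long common core, vary little.

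Members longer in CTX were named for 196 genes and members longer in MGE for 273, with 20 genes in both. Of 9 members at Ptprn2, 4 were longer in MGE and none in CTX, and at Ppp2r2c, a phosphatase 2A subunit, all 3 members were longer in MGE. Of 7 members in Pknox2, 3 were longer in MGE. In CTX, 2 of 6 members at Map2, the dendritic microtubule protein, 2 of 5 at Tenm4 and 2 of 2 at Astn1, a neuronal migration protein, were longer. These 6 genes were chosen after their values were seen.

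Few single members were called for KCl, and a member that was not called is not shown to be unchanged. In CTX, 1 member rose and 1 fell, where 0.0154% of all constant regions were called, 0.00772% rising and 0.00772% falling. In MGE 5 rose and 4 fell, where 0.1% were called, 0.0694% rising and 0.0309% falling. At an unadjusted p under 0.05 there were 712 members in CTX and 890 in MGE, against 9.44% and 14.2% of all constant regions, which is 14.6% and 18.2% of members. All 11 calls were lost without centring and with a replicate block within each culture. Counts were 0 to 28 in CTX and 0 to 62 in MGE when single libraries were left out. The CTX count was 28 without CTX KCl 2, 14 without CTX unstimulated 2, 1 without MGE KCl 1 and 0 without CTX KCl 1 or CTX unstimulated 1. The MGE count was 62 without MGE KCl 2, 42 without MGE unstimulated 1, 2 or 3 without a CTX unstimulated library (replicates 2 and 1) and 0 without either CTX KCl library or MGE KCl 1.

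The CTX member that rose lay 54.1 kb from Stmnd1 (chr13:46217263-46219660). It measured 1400 and 1908 bp with KCl and 264 and 392 bp unstimulated in CTX, and 1882 and 2012 bp against 816 and 990 bp in MGE. The groups did not overlap in either culture, and the log2 difference was 2.14 in CTX (SE 0.24, limma adjusted p = 0.02) and 0.94 in MGE (adjusted p = 0.13). The member that fell lay in Pnpla1, a skin lipid enzyme gene, at 296 and 374 bp with KCl and 1565 and 1548 bp unstimulated in CTX (log2 difference −2.43, SE 0.26, adjusted p = 0.02). In MGE it measured 873 and 1455 bp against 1513 and 1800 bp. Both CTX calls were lost without CTX KCl 1 or CTX unstimulated 1, and that near Stmnd1 also without MGE KCl 1 (adjusted p up to 0.448).

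The largest rise in MGE lay 8.14 kb from Fos, the immediate early transcription factor (chr12:85485412-85487806). It measured 1427 and 1952 bp with KCl and 320 and 377 bp unstimulated in MGE (log2 difference 2.09, SE 0.28, limma adjusted p = 0.0431), and 1920 and 2317 bp against 435 and 970 bp in CTX (1.49, adjusted p = 0.141). KCl libraries were longer in both cultures, and its fold was lower with KCl, at 2.95 to 3.23 in the 4 KCl libraries and 3.37 to 4.26 in the 4 unstimulated ones. This member had no common core. Fos had 2 more members on its other side. That 35.7 kb away measured 1852 and 2159 bp with KCl against 695 and 561 bp in CTX and 2084 and 2452 bp against 1617 and 749 bp in MGE. Its KCl libraries were longer without overlap in both cultures, yet it did not pass (log2 difference 1.47 and 0.86, limma adjusted p = 0.187 and 0.276). The member 17.3 kb away measured 1468 and 1684 bp against 956 and 1384 bp in CTX and 1284 and 1506 bp against 1121 and 1256 bp in MGE (log2 difference 0.24 and 0.05).

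The internal start of Aff1, a transcription elongation factor gene, rose in MGE from 280 and 303 bp to 975 and 1486 bp (log2 difference 1.87, SE 0.27, limma adjusted p = 0.0431), while CTX measured 1656 and 1595 bp with KCl and 726 and 1295 bp without. Members in Mcc, in Metap1d, a mitochondrial aminopeptidase gene, and in a gene-distant stretch of chromosome 5 were the other rises. Those in Dtd1 (267 and 501 bp with KCl, 1223 and 1585 bp without), Uox (281 and 280 bp, 991 and 848 bp), and Osbpl8 and near Dpf3, a chromatin remodelling subunit gene, fell. Those in Dtd1, Osbpl8 and the stretch of chromosome 5 had no common core. These 9 calls were kept in 3 to 7 of 13 alternative fits, and none of them was kept without CTX KCl 1, CTX KCl 2 or MGE KCl 1 (adjusted p up to 0.254). No member was called for a difference of the KCl effect between the cultures, and none of all constant regions was (0%), while 379 members had an unadjusted limma p under 0.05, as did 5.32% of all constant regions, so an equal effect in both cultures is not shown either.

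The members with the lowest p for that difference of the KCl effect are given as not passing. In Tbc1d16, a member with a noncoding start measured 269 and 229 bp with KCl and 479 and 468 bp unstimulated in CTX, and 1108 and 1176 bp against 340 and 326 bp in MGE. KCl libraries were thus the shorter ones in CTX and the longer ones in MGE (difference 2.74 log2, SE 0.40, limma adjusted p = 0.297). A member 33.6 kb from Fbxw11, a ubiquitin ligase subunit gene, had the opposite order, at 831 and 1147 bp against 253 and 457 bp in CTX and 240 and 401 bp against 606 and 672 bp in MGE (−2.53, adjusted p = 0.297). Neither member had a common core. The others lay in Maml3, Uox and Ttc28 and in the gene-distant stretch of chromosome 5 (adjusted p up to 0.593).

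As a set, members had shorter calls with KCl relative to gene ends. The median log2 difference over members was −0.14 in CTX and −0.15 in MGE, against 0.02 and 0.04 over gene ends. Without centring it was 0.07 and 0.03 in members and 0.23 and 0.21 at gene ends, so the members' own direction depends on the centring, which cannot alter the gap between the sets. Members were negative in both cultures in 48.4% of cases and positive in both in 18.3%, against 28.3% and 35.4% at gene ends. The 2 cultures have no library in common, but whether they shared handling is not stated, and regions of a library are not replicates. By library, the length ratio given earlier had an exact permutation p of 0.0556 for KCl, 0.222 after adjustment. Every KCl library was below every unstimulated one in 336 members (6.88%, against 4.18% of all constant regions) and above in 93 (1.9%, against 3.82%). In fold percentile the 400 members (8.18%) without overlap were fewer than the 9.9% of all constant regions. In 174 all KCl libraries were higher and in 226 lower, where the shares of all constant regions were 4.3% and 5.6%.

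By start class, members with a protein-coding start had medians of −0.02 in CTX and 0.01 in MGE, those with only a noncoding start −0.14 and −0.15, and those without a listed start −0.16 and −0.18. Outside genes the medians were −0.18 and −0.20 and inside −0.11 and −0.11. At gene ends the regions without a listed start had −0.02 and 0.01.

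**Figure D5:**
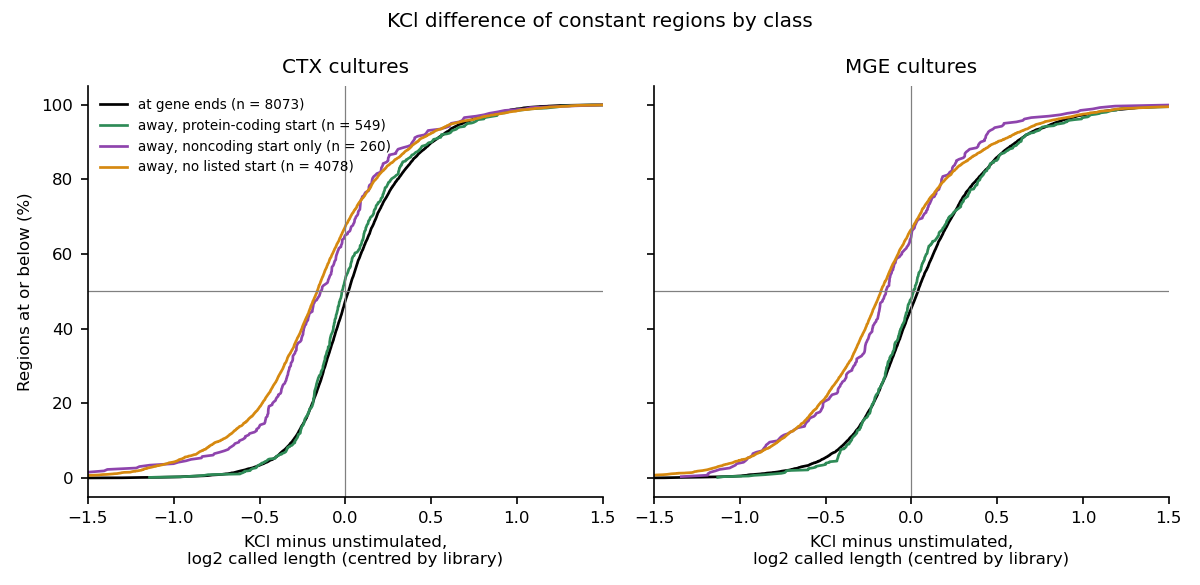
Cumulative share of regions (%) by their KCl difference in called length (log2, centred by library) in CTX (left) and MGE (right), for gene ends and 3 classes of members. Members with a protein-coding start follow the gene ends, and members with a noncoding start or none lie to the left, with medians from −0.14 to −0.18.

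Members were spread over many genes. They were named for the protein-coding gene with the nearest span within 100 kb. Of 21631 protein-coding genes 2786 (12.9%) had at least 1 member, 1952 of them just 1 and 75 at least 5. Most members were named for Msra, a methionine sulfoxide reductase (13), Dscaml1 (12) and Dlg2, a postsynaptic scaffold (10). Rere, a nuclear corepressor, the unconventional myosins Myo1d and Myo3b, the Notch coactivator Maml3 and Ptprn2 had 9 each, and the synaptic adhesion gene Nrxn3 and the zinc finger gene Hivep3 had 8, as did Celf2, Ntrk2 and Mef2c. The 13 Msra members together covered 13017 and 16386 bp in CTX with KCl, 15579 and 18495 bp unstimulated, 11481 and 14698 bp in MGE with KCl and 14159 and 13431 bp unstimulated. Gene length moved with these counts, since genes with a member had a median span of 62.5 kb against 17.3 kb for all genes. Its part in the counts was not tested.

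Members lay at most genes of 4 neuronal lists and at smaller shares of the other lists, where 12.9% of all genes had one. These shares were not tested. The RNA-binding protein genes of neurons had a member in 20 of 27 genes (74.1%, 44 members), with Celf2 at 8, Celf4 at 6 and Msi2 at 5. Synaptic and channel genes had 35 of 54 (64.8%, 85 members), cytoskeleton and neurite genes 23 of 36 and general neuronal transcription factors 20 of 32. Their median spans were 87.2 to 186.5 kb, longer than the 17.3 kb of all genes. Per Mb of span these 4 lists held 4.26 to 6.27 members inside genes, against 2.57 for all genes, 5.20 for cortical glutamatergic, 3.49 for MGE and GABAergic, 5.22 for microglia and 12.9 for immediate early genes, so per length they did not stand above every other list. Cortical glutamatergic genes had 7 of 28 (25%, 25 members, with 8 at Mef2c and 5 at Ldb2), and MGE and GABAergic genes 13 of 29 (44.8%, 20 members, among them 2 each at Gad2, the GABA-synthesising enzyme, and Erbb4, a neuregulin receptor). Mef2c is also on the list of general neuronal transcription factors, so its 8 members count in both. Immediate early genes had 11 of 35 (31.4%, 17 members, with 3 each at Fos and Sik1), and late activity-regulated genes 9 of 29. Of the markers of other cells, members lay at 1 of 16 for astrocytes, 1 of 16 for microglia, 4 of 15 (26.7%) for the oligodendrocyte lineage, 3 of 18 (16.7%) for endothelial and mural cells and also for progenitors, 4 of 12 (33.3%) for CGE interneurons and 1 of 15 for LGE and striatal neurons. Housekeeping genes had 3 of 28 and genes silent in neurons 1 of 28.

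Between cultures the lists of 20 or more members were called at 9.09% to 16%, around the 12.1% of all members. Shorter lists ranged more widely. The share was 5.88% of 17 immediate early, 18.2% of 11 late activity-regulated and 25% of 4 CGE members, and none was called in the remaining lists. In the RNA-binding list 4 of 44 members (9.09%) were longer in MGE and none in CTX. Of 85 synaptic and channel members 4 were longer in CTX and 7 in MGE (12.9% in all), of 68 transcription factor members 5 and 4 (13.2%), and of 52 cytoskeleton members 5 and 3 (15.4%). Among the 25 cortical members 1 was longer in CTX and 3 in MGE (16%), and among the 20 MGE and GABAergic members 1 and 1 (10%). The cortical member longer in CTX was at Mef2c and is counted among the transcription factor members too. For KCl, 1 of 17 immediate early members rose in MGE, the Fos member above, and none was called in CTX. At Lmna, a late activity-regulated gene, an internal start measured 1251 and 1332 bp with KCl and 389 and 633 bp without in CTX and 1121 and 1208 bp against 410 and 392 bp in MGE. KCl libraries were longer without overlap in both cultures, yet it did not pass (log2 1.17 and 1.36, limma adjusted p = 0.191 and 0.0721).

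Noncoding loci known from brain held members of low and of higher fold. Within 2 kb of 25 listed loci, members lay at Mir9-1, Mir9-2, Mir124a-1, Mir124a-3, Mir124-2hg and Mir137, at Meg3 and Malat1 (2 each), Neat1, Miat, Rmst, Sox2ot (2), Pantr1 and Peg13, and most often at the host genes Mir99ahg (7) and Mir100hg (6). The highest mean fold of a member was 1.95 at Mir124a-1, 2.20 at Mir137, 1.93 at Sox2ot and 1.83 at Pantr1, below the 3.50 of the median member, and 4.03 at Mir99ahg, 4.01 at Rmst, 3.84 at Meg3 and 3.60 at Miat, above it. The Mir9-1 member, 26.1 kb from a gene end, had a mean fold of 1.84 (percentile 0.3) and called lengths of 1152, 2149, 917 and 1914 bp in CTX and 1399, 1448, 2009 and 307 bp in MGE. The Mir9-2 member, 70.4 kb from the end of Mef2c, had a mean fold of 1.75 (percentile 0.1) and a core of 913 bp, with 2293, 2796, 2081 and 2090 bp in CTX and 1617, 2194, 2364 and 1234 bp in MGE. Both were low in fold, and the Mir9-1 member was short in MGE unstimulated 2 (307 bp) and had a core of only 118 bp. Neither passed for CTX against MGE (limma adjusted p = 0.805 and 0.689). These are the loci of the miR-9 strands printed first above.

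Of the members with a microRNA hairpin, that of Mir128-2 inside Arpp21, chosen after its values were seen, was called between cultures. It measured 1121, 1636, 956 and 1682 bp in CTX and 623, 1138, 241 and 237 bp in MGE and had no common core (log2 difference 1.34, limma adjusted p = 0.00745). MGE KCl 2 overlapped the CTX range, and the other MGE libraries lay below it. The 6 Mir344 members lay 301 to 612 kb from the nearest gene end and had mean folds of 4.08 to 4.97, above the median of members, with adjusted p from 0.342 to 0.984. The hairpins belong to 1 family, and how reads that match several of them were treated is not stated. The Mirlet7i member measured 858 to 1636 bp and the Mir760 member 1806 to 2357 bp, with a core of 1470 bp in the latter.

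Members seldom lay side by side. Linked within 10 kb they formed 4439 chains, of which 4034 were single and 405 held 2 or more members, 853 in all. The longest by count was a run of 6 members named for Lrrc74a (chr12:86800360-86825783) with a mean fold of 2.67. A run of 5 lay on chromosome 5, more than 100 kb from a gene (chr5:111741451-111763350). A run of 4 (chr7:73594666-73619342) was named for Chd2, a chromatin remodeller whose span ends at 73541746, and the longest run of 3 for Pipox. By chromosome, members made up between 29.1% (chromosome 19) and 49.7% (chromosome 18) of the constant regions.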

How the data were processed

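The deposited files were 8 lists of H3K27ac peaks in broad-peak format, 1 per library, called separately. The submitters' processing notes list, for build mm10 and with no role given, MACS3 3.0.0a7, Bowtie2 2.3.3, deepTools 3.4.3 and cutadapt 1.18. Settings, any input control and the handling of duplicates are not stated in the labels. Each peak carries the authors' fold enrichment, a linear ratio, the authors' −log10 p and −log10 q, and a deposited score that was not used. Fold served to describe regions of a library and to rank them there. The lists hold no read counts, so depth is unknown and its effect on each list could not be measured.

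Peaks were merged across lists, leaving out 29 peaks on chromosomes Y and M. Distances were taken to 21631 protein-coding spans of RefSeq (GRCm38.p6). The fold of a region in a library is the mean over its peaks weighted by length. Log2 called length, centred on the library median of constant regions, was fitted with limma 3.58.1 (R 4.3.3; trend and robust) on the 4 group means without a replicate block, over all 12960 constant regions, with Benjamini-Hochberg adjustment. A peak of any length in all 8 lists was required, so every value is above 0. The fit was tested on simulated data. Library ratios were compared by two-sided exact permutation. Alternatives covered centring, quantile normalisation, a −log10 q of at least 5, equal called bases, other distances, a replicate block and leaving out each library. The block was the replicate number shared by both cultures for CTX against MGE and the number within each culture for KCl.

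Regions were named for the nearest protein-coding span within 100 kb. Named were the 10 members with the highest fold percentile, the 10 with the longest core, the 10 genes with most members, the 5 longest chains, up to 10 called members per contrast and direction, and up to 5 genes per gene list. A few items that this rule names are not reported here. All 21 microRNA hairpins in members were tabulated. The members and gene lists were chosen with earlier results of these data known, so they are no independent support for a pattern.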

Additional observations from a re-analysis of the deposited data

How the results depend on the processing

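The number of members was 895 with peaks of −log10 q of at least 5, 1629 with a common core of at least 500 bases and 2677 with lists trimmed to equal called bases, against 4887. It was 4923 to 5713 when single libraries were left out. Members called for CTX against MGE, 590 as reported, were 77 without centring, 8 at the stricter q, 157 with equal called bases, 240 with log2 fold in place of length and 245 to 666 without single libraries. Calls for KCl in CTX, 2 as reported, were 0 without centring or at the stricter q, 13 with quantile normalisation, 4 with equal called bases, 15 centred on members alone, 1 by fold and 0 to 28 without single libraries. Calls for KCl in MGE, 9 as reported, were 0 without centring, 4 with quantile normalisation, 3 at the stricter q, 28 with equal called bases, 82 centred on members alone, 3 over regions with a common core and 0 to 62 without single libraries. The difference of the KCl effect gave 0 to 1 calls. The last 3 kinds of alternative (members alone, fold, common core) were chosen after seeing the data. The cause of these changes was not tested, beyond the fewer regions left by the stricter q and the equal called bases.

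Without single libraries the CTX minus MGE difference ran from −0.085 to 0.031 log2 for the length ratio and from −0.026 to 0.022 for the fold ratio, so both changed sign. The KCl difference in the fold ratio was 0.003 at the stricter q and −0.069 to 0.002 without single libraries. The KCl difference in the length ratio stayed negative in each alternative run.

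Whether same-numbered libraries of different groups were paired is not stated. Their deviations correlated between −0.086 and 0.178, the highest for CTX KCl with CTX unstimulated, and such values cannot show whether libraries were paired. With a replicate block 537 members were called for CTX against MGE and 0 for KCl in either culture. Unknown read depth and 2 libraries a group limit every value.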
